A study of Mus musculus with 6 samples.

Results

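The genes described here are the adult hemoglobin genes and the heme enzyme gene that red cell precursors use. They were measured in RNA from enriched, not pure, amygdala neurons of mice. The genes are Hba-a1 and Hba-a2, which encode the alpha chain of hemoglobin, and Hbb-bs and Hbb-bt, which encode its beta chain. The last is Alas2, which encodes the erythroid form of the first enzyme of heme synthesis. The 5 rows were taken by name from a count table of 35976 genes, and all 5 passed the filter on low counts, among 13159 genes tested. They were chosen by name with their measured levels and fold changes in sgEgfr over sgRosa already known, so these differences are given as a description and carry no test. The study's neurons came from male C57BL/6J mice given viral (AAV) CRISPR vectors in the amygdala, with Cas9 under GfaABC1D, a promoter used for astrocytes. The guides targeted the receptor gene Egfr (genotype label sgEgfrAstro) or the control locus Rosa (genotype label sgRosa26). There were 3 sgEgfr and 3 sgRosa libraries, each from 5 ng of RNA. All mice had more than 2 weeks of expression, tube restraint for 7 days, fear conditioning for 1 day and extinction for 3 days, so no unstressed animals are among them. The neurons were enriched magnetically and are not the cells in which the promoter drives Cas9.

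Hemoglobin is a tetramer of alpha and beta chains that each hold a heme group, and it carries oxygen in red cells. Its genes sit in separate alpha and beta clusters and are among the most abundant transcripts of reticulocytes, the young red cells that still hold RNA. In brain tissue hemoglobin RNA is widely used as a sign of blood in the sample, and hemoglobin transcripts have also been reported in midbrain dopamine neurons and in some glia. The comparison made here is of sgEgfr with sgRosa in each library, set beside markers of red cells, other blood cells, vessels and neurons.

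Total counts were 4849404, 4352966 and 2520426 in sgEgfr replicates 1, 2 and 3, and 4144701, 2348897 and 10152812 in sgRosa replicates 1, 2 and 3. The targeted gene Egfr had 6, 18 and 6 counts in the sgEgfr libraries and 1, 26 and 23 counts in the sgRosa libraries, too few to check the guides in cells that were not the targeted ones. Neuronal markers were present in every library, beside RNA of oligodendrocytes, astrocytes, microglia and vessels. In each library the 12 oligodendrocyte markers summed to more than the 16 pan-neuronal markers, so the RNA was not of neurons alone. Choroid plexus RNA was high in sgEgfr replicate 1 and sgRosa replicate 3, where markers of that tissue summed to 8693 and 11690 CPM (counts scaled to library size and by TMM, a normalization for library makeup), against 514 to 2450 CPM in the other 4 libraries. Nearly all of the sum in those 4 was 1 gene, Enpp2 (502 to 2428 CPM), so it does not measure that tissue alone. The marker Ttr was at 1852 and 3052 CPM in the rich libraries, against 0 to 28.1 CPM in the other 4. Over all genes, edgeR's quasi-likelihood test called 0 of 13159 (0%) at an adjusted p under 0.05, with 811 at an unadjusted p under 0.05. DESeq2 called 31 genes higher (0.236% of those tested), Alas2 among them and no other member, and 2 lower in sgEgfr. It gave no adjusted p for 5114 of the 13159 genes, which could not be called. Alas2 was chosen with its difference known, so nothing is read from its call. Fitted with a quality weight for each library, limma-voom called 0 (1980 at an unadjusted p under 0.05).

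The alpha-globin genes lie near each other on mouse chromosome 11 (GRCm38, the assembly that mm10 names), Hba-a1 at 32283511 to 32284465 and Hba-a2 at 32296489 to 32297298, both on the plus strand. Their coding sequences of 429 bases differed at 1 position, and 86.9% of the 50-base windows of the Hba-a2 transcript also occurred in that of Hba-a1. The beta-globin genes lie on chromosome 7, Hbb-bs at 103826534 to 103828096 and Hbb-bt at 103812524 to 103813996, both on the minus strand, with coding sequences of 444 bases that also differed at 1 position. Reads from such copies can be assigned to either gene or dropped, so single-copy values are uncertain and the sum of each pair is given beside them. Alas2 lies on the X chromosome at 150547375 to 150570638, plus strand, and some of its exons overlap Apex2 on the opposite strand. Whether reads were counted by strand is unknown here; Apex2 had 9, 12 and 8 counts in sgEgfr and 17, 10 and 39 counts in sgRosa.

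The promoters are shown because the 5 genes followed nearly the same order of libraries. The 250 bases before each start, from RefSeq on GRCm38.p6, are printed 5′ to 3′ on the gene's own strand, with capitals for 4 motifs searched on both strands: the GATA words (TGATAA with its variants AGATAA or else AGATAG), the box CCAAT, the word CACCC found in many erythroid promoters, and the TATA-type word ATATAA. The RefSeq starts lie inside the GENCODE gene intervals given above, so each window overlaps the interval of its gene. The Hba-a2 window (chr11:32296242-32296491) shares a run of 247 bases with that of Hba-a1 and is not printed.
Hba-a1 (chr11:32283422-32283671, plus strand): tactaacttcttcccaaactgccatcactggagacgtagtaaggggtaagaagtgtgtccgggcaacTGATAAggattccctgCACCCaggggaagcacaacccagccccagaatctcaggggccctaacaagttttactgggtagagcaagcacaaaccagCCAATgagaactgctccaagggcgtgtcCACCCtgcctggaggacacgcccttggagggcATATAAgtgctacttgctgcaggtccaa
Hbb-bs (chr7:103827929-103828178, minus strand): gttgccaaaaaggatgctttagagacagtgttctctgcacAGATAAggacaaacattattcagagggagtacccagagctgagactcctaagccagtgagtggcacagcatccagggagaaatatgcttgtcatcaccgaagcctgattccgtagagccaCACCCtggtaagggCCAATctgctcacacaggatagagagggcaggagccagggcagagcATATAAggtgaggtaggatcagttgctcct
Hbb-bt (chr7:103813924-103814173, minus strand): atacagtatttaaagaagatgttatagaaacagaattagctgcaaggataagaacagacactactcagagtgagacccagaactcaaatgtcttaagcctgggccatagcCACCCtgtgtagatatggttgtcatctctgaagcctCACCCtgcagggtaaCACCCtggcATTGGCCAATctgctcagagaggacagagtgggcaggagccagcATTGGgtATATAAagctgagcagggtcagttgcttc
Alas2 (chrX:150547167-150547416, plus strand): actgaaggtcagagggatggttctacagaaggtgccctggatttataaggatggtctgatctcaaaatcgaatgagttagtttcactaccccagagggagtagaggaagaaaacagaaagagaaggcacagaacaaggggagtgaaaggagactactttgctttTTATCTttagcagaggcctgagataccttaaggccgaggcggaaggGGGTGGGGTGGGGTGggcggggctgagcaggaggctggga

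All 4 globin windows held the CCAAT box, the CACCC word and the TATA-type word, which began 28 to 31 bases before the start. Alas2 held neither the first nor the last of these and had 3 adjacent copies of the second on the opposite strand. A GATA word was found in each window except that of Hbb-bt. No matches overlapped. Over 32851 promoter windows of the same length, a GATA word was present in 22.3%, the box in 33.8%, the CACCC word in 52% and the TATA-type word in 9.1%. The Hbb-bs and Hbb-bt windows were 69.3% identical when aligned. These are letter matches and say nothing of binding.

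Hemoglobin RNA was a small part of every library, on average higher in sgEgfr, and uneven within the groups. The 4 hemoglobin genes together took 0.124%, 0.395% and 0.0565% of counts in the sgEgfr libraries and 0.0896%, 0.0395% and 0.0421% in the sgRosa libraries. Scaled by TMM, they summed to 1282, 3837 and 555 CPM in sgEgfr replicates 1, 2 and 3, against 1045, 388 and 385 CPM in sgRosa replicates 1, 2 and 3. The sum in sgEgfr replicate 2 was 4.18 times the mean of the other 2 sgEgfr libraries, and sgRosa replicate 1 lay between sgEgfr replicates 1 and 3, so the groups overlapped. The means were 1891 ± 1724 CPM in sgEgfr and 606 ± 380 CPM in sgRosa (SD, n = 3 each). In bulk RNA, more cells of a type and more RNA per cell cannot be told apart.

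**Figure D1:**
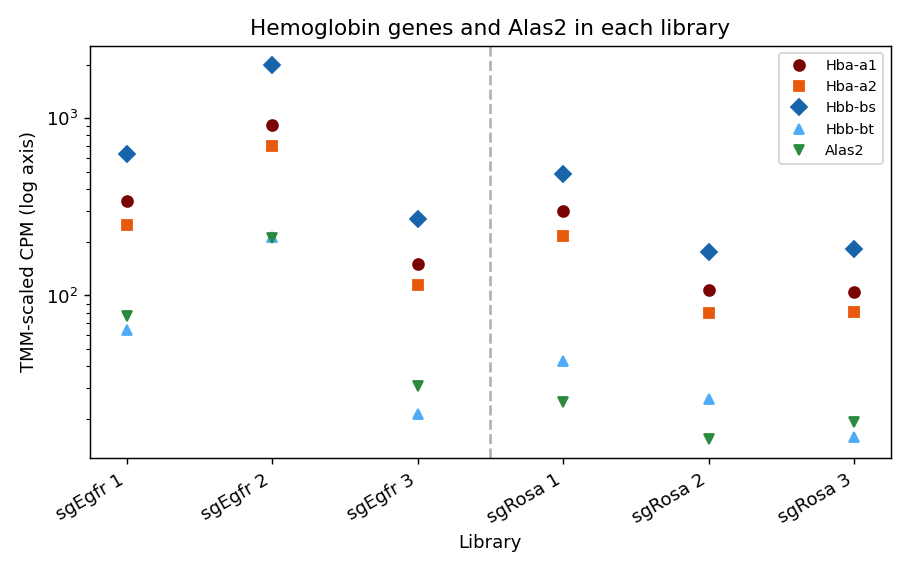
TMM-scaled CPM (log axis) of the 4 hemoglobin genes and Alas2 in each of the 3 sgEgfr and 3 sgRosa libraries, one marker shape per gene. All 5 genes are highest in sgEgfr replicate 2, and sgRosa replicate 1 is the highest sgRosa library for each.

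Among the alpha chain genes, Hba-a1 had 1599, 4125 and 385 counts in the sgEgfr libraries, against 1060, 256 and 1162 counts in the sgRosa libraries. This was 341, 920 and 150 CPM in sgEgfr and 298, 107 and 105 CPM in sgRosa, with a log2 fold change of 1.47 (SE 0.70). Hba-a2 had 249, 698 and 115 CPM in sgEgfr and 218, 79.4 and 80.6 CPM in sgRosa, with a log2 fold change of 1.49 (SE 0.69). For both genes sgRosa replicate 1 was above sgEgfr replicate 3. The alpha pair summed to 824 ± 707 CPM in sgEgfr and 296 ± 191 CPM in sgRosa (SD, n = 3 each).

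Among the beta chain genes, Hbb-bs was the most abundant member in every library, with 628, 2005 and 269 CPM in sgEgfr, against 486, 175 and 184 CPM in sgRosa. Its log2 fold change was 1.78 (SE 0.75). Hbb-bt, the minor copy in these counts, had 63.6, 213 and 21.4 CPM in sgEgfr and 42.7, 25.9 and 15.9 CPM in sgRosa, with a log2 fold change of 1.83 (SE 0.76). Both genes had overlapping groups, since sgRosa replicate 1 again exceeded sgEgfr replicate 3. The beta pair summed to 1067 ± 1017 CPM in sgEgfr and 310 ± 190 CPM in sgRosa (SD, n = 3 each).

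Alas2 makes the enzyme that starts heme synthesis in developing red cells and was the member whose groups did not overlap. It had 361, 943 and 79 counts in the sgEgfr libraries, against 89, 37 and 216 counts in the sgRosa libraries. Scaled, this was 77.0, 210 and 30.8 CPM in sgEgfr and 25.0, 15.5 and 19.4 CPM in sgRosa, so that even the lowest sgEgfr library was above the highest sgRosa library. The means were 106 ± 93.3 CPM in sgEgfr and 19.98 ± 4.81 CPM in sgRosa (SD, n = 3 each), and the log2 fold change was 2.41 (SE 0.63). Alas2 was thus 1 of 5 members higher in sgEgfr without overlap, where 5.8% of all tested genes were. It was chosen with this difference known, so nothing is read from that count.

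Per kilobase of the longest coding transcript, the order of the members was the same in each of the 6 libraries. Mean levels in sgEgfr were 1541 CPM per kilobase for Hbb-bs, 673 for Hba-a1, 639 for Hba-a2, 141 for Hbb-bt and 52.1 for Alas2, against 449, 243, 227, 40.1 and 9.81 CPM per kilobase in sgRosa for the same genes. The levels of Hba-a1 and Hba-a2 were closer to each other than to their own spread between libraries. Within groups the members were among the more variable genes: the SD of log2 CPM was 1.00 to 1.26, and between 2.63% and 6.31% of tested genes had a higher one.

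**Figure D2:**
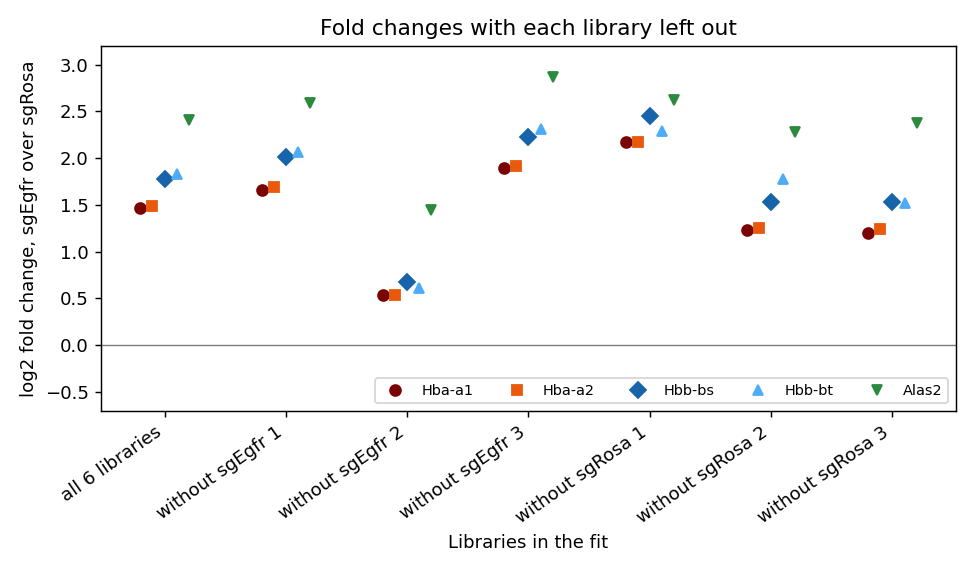
Log2 fold change of each member, sgEgfr over sgRosa, with all 6 libraries and with each library left out in turn. The values are lowest without sgEgfr replicate 2, where the hemoglobin genes lie at 0.53 to 0.67 and Alas2 at 1.45.

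A single library set much of the size of these differences. Without sgEgfr replicate 2 the log2 fold change was 0.53 for Hba-a1 and Hba-a2, 0.67 for Hbb-bs, 0.61 for Hbb-bt and 1.45 for Alas2. Without sgRosa replicate 1 it was 2.18 for Hba-a1, 2.17 for Hba-a2, 2.45 for Hbb-bs, 2.29 for Hbb-bt and 2.62 for Alas2. In that setting the groups did not overlap for 4 of 5 members, all but Hbb-bt, where 9.92% of tested genes were higher without overlap. Leaving out sgEgfr replicate 3 separated all 5 members, beside 9.75% of tested genes. With all libraries in, sgRosa replicate 1 lay above sgEgfr replicate 3 for each hemoglobin gene, so leaving out either one favours separation. The members also rose and fell together and were chosen with the contrast known, so nothing is read from these counts. Without the 2 libraries rich in choroid plexus RNA, a setting chosen after seeing the data, the log2 fold change was 1.43 for the alpha sum and 2.58 for Alas2.

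The makeup of the hemoglobin counts was steadier than their amount. Hba-a1 made up 57.8%, 56.9% and 56.7% of the alpha counts in sgEgfr, against 57.8%, 57.4% and 56.5% in sgRosa, and the exact binomial 95% intervals of all 6 libraries overlapped. Alpha counts were 46.0%, 42.2% and 47.6% of hemoglobin counts in sgEgfr and 49.4%, 48.1% and 48.1% in sgRosa. The library with the most hemoglobin, sgEgfr replicate 2, had the lowest alpha share, and its interval (41.4% to 42.9%) lay below those of the other 5. Hbb-bt took 9.19%, 9.62% and 7.37% of beta counts in sgEgfr and 8.08%, 12.9% and 7.97% in sgRosa. The 12.9% of sgRosa replicate 2 rests on 62 of 482 counts (95% interval 10.01% to 16.2%). These intervals cover counting error only, since the reads carry no molecular identifiers.

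Alas2 did not keep a fixed ratio to hemoglobin. It was 5.67%, 5.20% and 5.25% of the summed Alas2 and hemoglobin counts in sgEgfr, where all 3 intervals overlapped. In sgRosa the share was 2.34%, 3.83% and 4.81%. The lowest, in sgRosa replicate 1, had a 95% interval of 1.88% to 2.87% that lay below those of all 3 sgEgfr libraries and of sgRosa replicate 3. That library had the third highest hemoglobin sum of the 6 and the highest Alas2 level of the sgRosa group. Its hemoglobin sum was above that of sgEgfr replicate 3, but its Alas2 level was below (25.0 against 30.8 CPM). There the narrow separation of Alas2 and the overlap of the hemoglobin genes part ways.

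**Figure D3:**
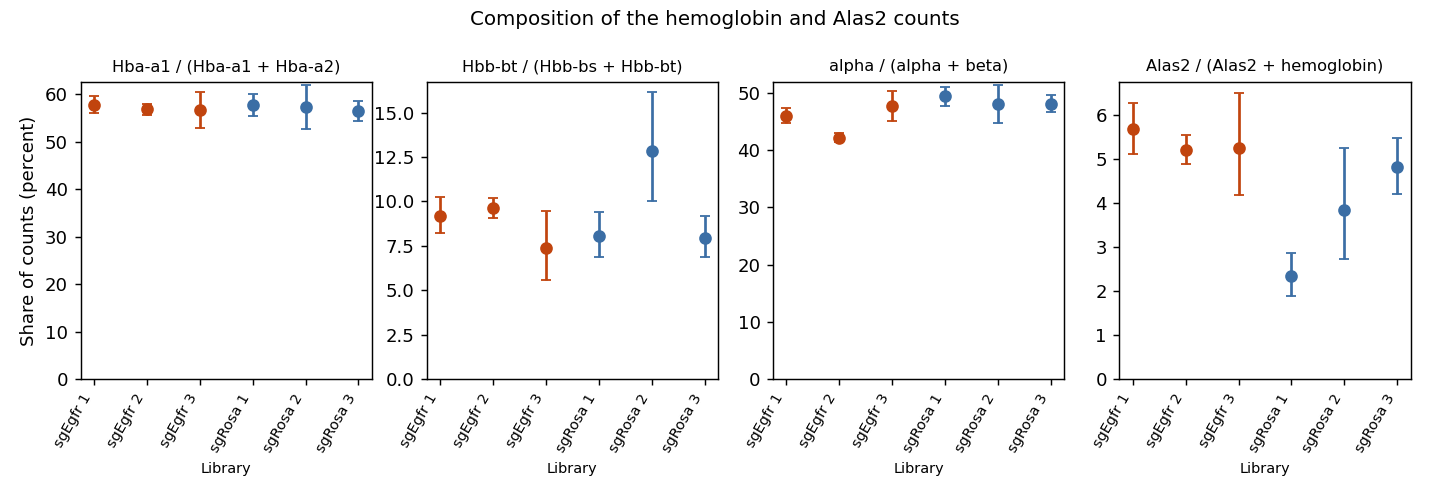
Share of counts (percent) taken by Hba-a1 within the alpha copies, by Hbb-bt within the beta copies, by alpha within hemoglobin and by Alas2 within Alas2 plus hemoglobin, for each library, with exact binomial 95% intervals. The alpha copies split alike in all 6 libraries (56.5% to 57.8%), while the Alas2 share is lowest in sgRosa replicate 1 (2.34%).

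Other globins were at low levels. Neuroglobin (Ngb) and cytoglobin (Cygb), globins of neurons and of several other cell types, were the 2 tested of 10 other globin genes found. Ngb had 8.10, 12.3 and 8.96 CPM in sgEgfr and 7.59, 11.7 and 17.4 CPM in sgRosa (log2 fold change -0.34, SE 0.37). Cygb had 17.7, 18.3 and 19.1 CPM in sgEgfr and 8.999, 20.5 and 26.4 CPM in sgRosa (-0.03, SE 0.38). Neither followed the hemoglobin genes. Exons of Cygb overlap Prcd on the opposite strand. The embryonic globin genes Hba-x, Hbb-y, Hbb-bh1 and Hbb-bh2 had at most 1 count in any library, and the theta-like gene Hbq1b had at most 8.

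The rest of the heme pathway had fold changes of both signs. Of 12 heme synthesis genes, all tested, 3 had positive and 9 negative log2 fold changes (median -0.33, against -0.04 over all tested genes), 0 were called by edgeR, and at an unadjusted p under 0.05 there was 1 higher and 0 lower. The higher one was Slc25a37, which encodes mitoferrin, the mitochondrial iron importer of red cell precursors. It had 26.2, 49.98 and 19.9 CPM in sgEgfr and 9.84, 10.9 and 12.3 CPM in sgRosa, without overlap (log2 fold change 1.54, SE 0.37). Fech, whose enzyme inserts iron into the ring in the last step of heme synthesis, had 249, 303 and 139 CPM in sgEgfr and 174, 137 and 79.5 CPM in sgRosa, with overlap (0.83, SE 0.39). Alas1, the housekeeping counterpart of Alas2, went the other way in value, at 81.9, 56.5 and 59.2 CPM in sgEgfr and 226, 64.3 and 50.7 CPM in sgRosa (-0.79, SE 0.55), its highest level being in sgRosa replicate 1. Exons of Slc25a37 and Alas1 overlap genes on the opposite strand.

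Genes of the red cell membrane were mostly low or shared with neurons. Of 19 genes, all found, 10 were tested, with 6 positive and 4 negative log2 fold changes (median 0.34) and 0 called. At an unadjusted p under 0.05, 2 were higher and 0 lower, where 3.23% and 2.93% of all tested genes were. Among these, Epb41, which encodes a protein of the membrane skeleton, had 46.5, 71.0 and 24.9 CPM in sgEgfr and 19.4, 21.3 and 19.8 CPM in sgRosa (log2 fold change 1.24, SE 0.36), and its exons overlap genes on the opposite strand.

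The red cell anion exchanger gene Slc4a1 had 4.48, 5.80 and 3.12 CPM in sgEgfr and 1.13, 6.27 and 2.34 CPM in sgRosa, and did not follow the hemoglobin genes. The other 9 membrane genes, among them Rhag, Kel and Ermap, stayed at 24 counts or fewer everywhere and were not tested. None of the 19 was at 0 in all libraries. The most abundant members, Dmtn, Tmcc2, Add2 and Sptb, are also expressed in neurons, so the sum of this list (594, 503 and 569 CPM in sgEgfr, 390, 384 and 689 CPM in sgRosa) does not measure red cells alone.

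Genes of the reticulocyte cytoplasm differed in direction. Of 19 found, 16 were tested, with 10 positive and 6 negative log2 fold changes (median 0.26) and 0 called. At an unadjusted p under 0.05, 2 were higher and 1 was lower. Ube2l6, a conjugating enzyme of the ubiquitin-like protein ISG15, had 99.4, 229 and 58.4 CPM in sgEgfr and 40.8, 42.2 and 35.6 CPM in sgRosa, without overlap (log2 fold change 1.71, SE 0.47). Isg20, an exonuclease gene, had 10.2, 41.3 and 10.1 CPM in sgEgfr and 7.03, 6.68 and 6.93 CPM in sgRosa (1.58, SE 0.57). Both are also interferon-stimulated genes.

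Bnip3l, whose product clears mitochondria from maturing reticulocytes, had 1587, 1974 and 1049 CPM in sgEgfr and 685, 1170 and 736 CPM in sgRosa (log2 fold change 0.83, SE 0.38). The lower one, Car2, encodes a carbonic anhydrase of red cells and oligodendrocytes. Its levels of 353, 481 and 150 CPM in sgEgfr and 1987, 812 and 336 CPM in sgRosa (-1.67, SE 0.68) stood beside oligodendrocyte marker sums of 39689, 58265 and 22748 CPM in sgEgfr and 73091, 66116 and 24763 CPM in sgRosa. The part of oligodendrocytes in that value was not tested.

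**Figure D4:**
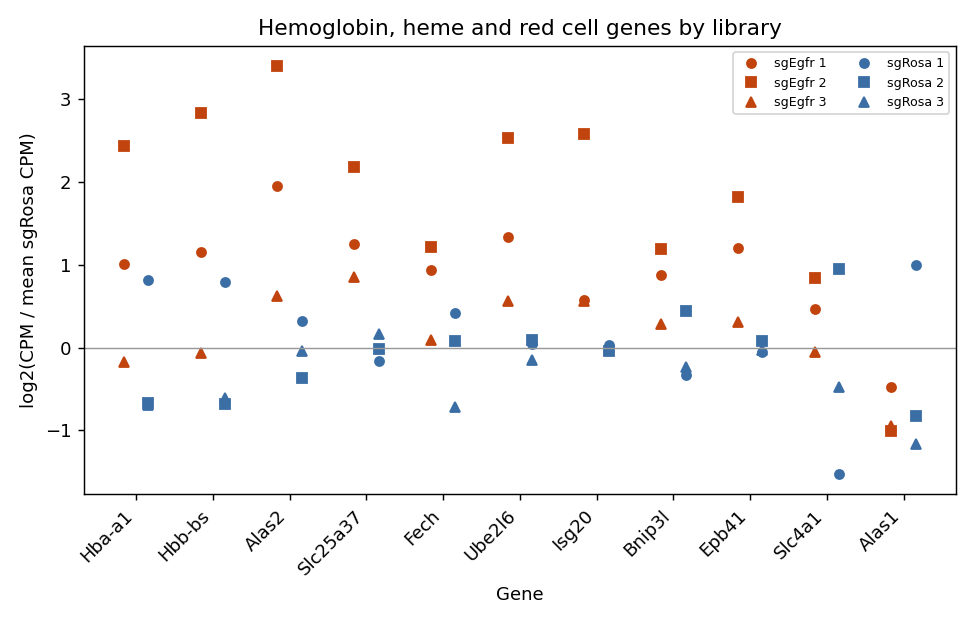
Log2 ratio of each library's CPM to the mean CPM of the 3 sgRosa libraries for 11 genes of hemoglobin, heme synthesis and red cells (orange, sgEgfr; blue, sgRosa; shape, replicate). Alas2, Slc25a37, Ube2l6, Isg20 and Epb41 have all sgEgfr libraries above all sgRosa libraries, whereas the hemoglobin genes, Fech, Bnip3l and Slc4a1 overlap and Alas1 is highest in sgRosa replicate 1.

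Transcription factors that define red cell precursors were nearly absent. Gata1 and Klf1 had at most 1 and 2 counts in any library, and Gfi1b had 0 in all of them. A floor of 3 counts was 0.270 to 1.25 CPM over the 6 libraries. The 6 tested genes of the 10 on the list, such as Lmo2, Bcl11a and Tal1, are also used in vessels, neurons or other cells, and all 6 had positive log2 fold changes (median 0.26) with 0 called.

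Markers of other blood cells were low and only partly ordered like hemoglobin. The 12 platelet genes summed to 27.1, 44.0 and 23.4 CPM in sgEgfr and 21.4, 15.04 and 20.3 CPM in sgRosa, highest in the same library as hemoglobin. Of these, 4 were tested, all 4 positive (median 0.85), with the integrin gene Itga2b at 5.12, 7.14 and 3.90 CPM in sgEgfr and 2.53, 2.09 and 3.421 CPM in sgRosa. The 13 neutrophil and granulocyte genes had another order, with 34.1, 32.8 and 19.5 CPM in sgEgfr and 10.1, 49.3 and 91.2 CPM in sgRosa. Their most abundant member, the granule gene Ngp, was at 52.7 CPM in sgRosa replicate 3, which had the lowest hemoglobin sum, and at 12.7 CPM in sgEgfr replicate 2. Of the 4 tested, 2 had positive and 2 negative log2 fold changes (median -0.32), and 1 was higher at an unadjusted p under 0.05. That gene, Lcn2, which encodes an iron-binding secreted protein also made by glia, had 2.56, 7.36 and 7.01 CPM in sgEgfr and 0.281, 2.92 and 0.720 CPM in sgRosa, with overlap (log2 fold change 2.32, SE 0.78).

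Of 11 markers of T and NK cells 9 were found, since Trac and Trbc2 had no row in the counts. They summed to 6.40, 11.6 and 8.96 CPM in sgEgfr and 11.8, 10.02 and 4.14 CPM in sgRosa. Of 8 B cell genes 5 were found, and the immunoglobulin genes Ighm, Igkc and Iglc2 had no row, so their levels are unknown. Among the 5 only Ebf1, which pericytes and some neurons also express, exceeded 10 counts in a library. Of the monocyte genes, Ly6c2 had at most 5 counts and Ccr2 at most 13. Nr4a1, also an activity-induced gene of neurons, made up most of the monocyte list, which summed to 428, 486 and 355 CPM in sgEgfr and 578, 964 and 343 CPM in sgRosa.

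Vessel RNA had another order of libraries than hemoglobin. Of 15 endothelial genes, all tested, 5 had positive and 10 negative log2 fold changes (median -0.17), and of 9 tested pericyte and smooth muscle genes 1 was positive and 8 were negative (median -0.39). The 15 endothelial genes summed to 3026, 2673 and 3200 CPM in sgEgfr and 5993, 2673 and 1554 CPM in sgRosa, so the library with the most hemoglobin and sgRosa replicate 2 had nearly equal endothelial sums beside hemoglobin sums of 3837 and 388 CPM. Pericyte and smooth muscle genes summed to 773, 467 and 375 CPM in sgEgfr and 1336, 481 and 284 CPM in sgRosa. In sgRosa replicate 1 the endothelial, pericyte and hemoglobin sums were each the highest of the sgRosa group. The part of vessel content in the hemoglobin values was not tested.

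The log2 fold changes of the 16 pan-neuronal genes were all positive, the sign seen for hemoglobin (median 0.35), but the order of libraries was another one. edgeR called 0 of the 16, and at an unadjusted p under 0.05 there was 1 higher and 0 lower. That gene, Elavl4, which encodes a neuronal RNA-binding protein, had 59.9, 48.2 and 93.9 CPM in sgEgfr and 19.1, 25.1 and 51.8 CPM in sgRosa, with overlap (log2 fold change 1.06, SE 0.42). The 16 pan-neuronal genes summed to 6125, 4055 and 6483 CPM in sgEgfr and 3420, 2892 and 7079 CPM in sgRosa. The library with the most hemoglobin had the lowest neuronal sum of its group. The libraries with the highest and the lowest neuronal sums, sgRosa replicates 3 and 2, had nearly equal hemoglobin sums of 385 and 388 CPM. The part of neurons in the hemoglobin values was not tested.

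Of 10 genes used as markers of midbrain dopamine neurons, 4 were tested, with 2 positive and 2 negative log2 fold changes (median -0.10), 0 called, and 1 higher at an unadjusted p under 0.05. That gene, Slc18a2, which encodes the vesicular monoamine transporter, had 79.3, 74.97 and 91.96 CPM in sgEgfr and 28.1, 48.9 and 28.3 CPM in sgRosa, without overlap (log2 fold change 1.23, SE 0.28), and its exons overlap a gene on the opposite strand. The other 3 tested, Nr4a2, Ddc and Aldh1a1, had overlapping groups and log2 fold changes of 0.08, -0.60 and -0.28 in that order. Pitx3, Foxa2 and En1 were at 0 in all libraries, and the dopamine transporter gene Slc6a3 had at most 6 counts. The tyrosine hydroxylase gene Th had 0, 21 and 0 counts in sgEgfr and 5, 18 and 5 counts in sgRosa. Scaled, Th was highest in sgRosa replicate 2 (7.52 CPM). It was at 4.69 CPM in sgEgfr replicate 2, the library with the most hemoglobin. The part of dopamine neurons in the hemoglobin values was not tested.

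Of 12 microglial markers, all tested, 11 had positive log2 fold changes and 1 a negative one (median 1.33), with 0 called. They summed to 380, 565 and 42.5 CPM in sgEgfr and 85.2, 153 and 193 CPM in sgRosa. These sums were highest in the library with the most hemoglobin, but lowest in sgEgfr replicate 3, whose hemoglobin exceeded that of sgRosa replicates 2 and 3. Astrocyte markers summed to 1444, 1982 and 744 CPM in sgEgfr and 1115, 1869 and 1146 CPM in sgRosa. The part of either cell type in the hemoglobin values was not tested.

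**Figure D5:**
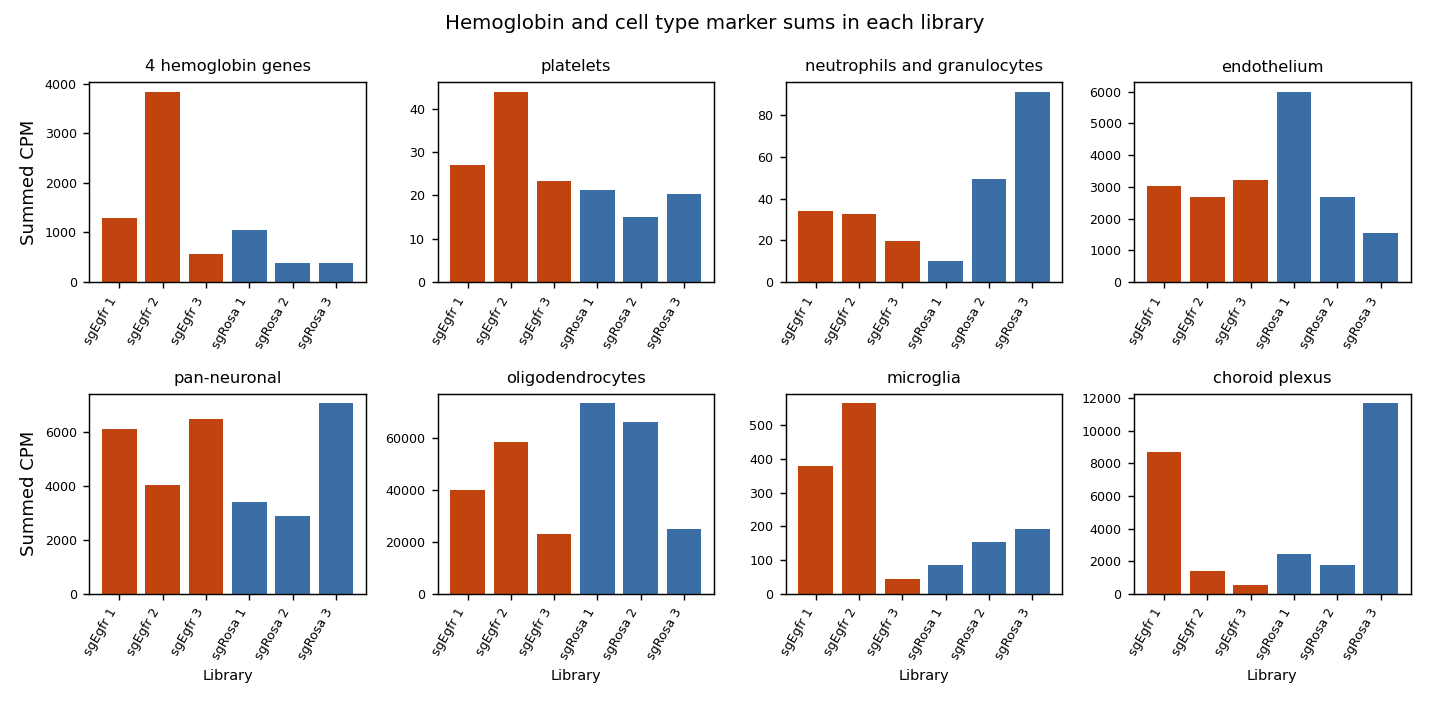
Summed CPM of the 4 hemoglobin genes and of 7 marker lists in each library (bars from 0; orange, sgEgfr; blue, sgRosa). Hemoglobin, platelet and microglial sums are highest in sgEgfr replicate 2, endothelial sums in sgRosa replicate 1 and neuronal sums in sgRosa replicate 3.

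Among tested genes outside the 5, the 10 genes whose log2 CPM was most like the mean of the 4 hemoglobin genes over the 6 libraries had Pearson correlations of 0.948 to 0.979. They included Tnks2, Plekha8, Grk4, Tmem243, Fabp5, Dnmt3a, Pabpc1, Itgav and Rhebl1, and none of the 10 was on the erythroid lists. Their levels differed between libraries by 1.19-fold (Tnks2) to 4.18-fold (Tmem243), against 9.96-fold for the hemoglobin sum. These correlations are a description over 6 libraries that share their scaling. Among the members themselves, log2 CPM correlated at 0.970 to 1.00 between hemoglobin genes and at 0.923 to 0.948 between Alas2 and each of them.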

How the data were processed

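The authors deposited raw read counts per gene, with no normalization, for each library and for the series; the 6 matching columns were identical, and 3 further columns matched no sample and were not used. STAR 2.7.5c, featureCounts 2.0.1, fastp 0.23.2, MultiQC 1.11, FastQC 0.11.9, edgeR 3.42.4 and the build mm10 are named in the submitters' processing notes. Their options, the annotation and the strand setting are not given in the sources used here. The protocols in the labels describe papain digestion, magnetic isolation of neurons and NEBNext libraries.

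Genes passing filterByExpr (minimum count 10, minimum total 15) were fitted together with TMM scaling and edgeR's robust quasi-likelihood test (edgeR 4.0.16, R 4.3.3; not the legacy form), with p-values adjusted by Benjamini-Hochberg and called below 0.05. Each standard error is the log2 fold change divided by the root of its F. Log2 CPM used a prior count of 2. The fit was tested on simulated data. Libraries were numbered and grouped by their titles, which do not say that each came from a separate animal, so errors measure the spread between these libraries. Members and lists were chosen with earlier results of these data known; 242 of the 251 list genes were found under their own or a RefSeq synonym. Genes named are the members, the most abundant and smallest-p genes of each list, and the 10 most like hemoglobin (predicted genes passed over); a few genes that this rule names are not reported here. Slc4a1, Hmox1, Apex2, the defining markers given for being at or near 0, and the genes like Alas2 were chosen after their values were seen. Transcript lengths and positions are from GENCODE M21; copies were aligned with Biopython 1.88.

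Alternatives were scaling by RLE, by upper quartile, by library size alone and without the hemoglobin genes, a stricter filter (a mean count of 20 and 1 CPM in 3 libraries), no filter, the legacy fit, a replicate block, DESeq2 1.42.0, limma-voom (limma 3.58.1), an adjusted p under 0.1, leaving out each library and, chosen after seeing the data, leaving out both libraries with choroid plexus RNA. The limma-voom fit gave each library a quality weight.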

Additional observations from a re-analysis of the deposited data

How the results depend on the processing

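The count of genes called over the whole table was 0 in the main analysis and under the other scalings, filters, edgeR forms, limma-voom, an adjusted p under 0.1 and with each library left out; DESeq2 called 33. The 5 members had positive log2 fold changes under each of their 17 alternatives, all within 1 SD of the spread between libraries, a direction that their choice favours. With each library left out, the summed alpha-globin log2 fold change of 1.48 ranged from 0.53 to 2.17 and the summed beta-globin value of 1.78 from 0.67 to 2.43; the lowest came without sgEgfr replicate 2 and the highest without sgRosa replicate 1. Scaling moved the median log2 fold change of all genes by less than 0.1. Same-numbered libraries deviated from their group means with correlations of -0.03, 0.48 and 0.28. The same-numbered sgRosa library was the best match for sgEgfr replicates 2 and 3. For sgEgfr replicate 1 the best match was sgRosa replicate 3 (0.21), so this check does not settle whether the numbers pair the libraries. With a replicate block the count of calls was 0, with 1316 genes at an unadjusted p under 0.05 against 811 in the main edgeR fit. The log2 fold changes with that block were 1.21 for Hba-a1, 1.22 for Hba-a2, 1.39 for Hbb-bs, 1.31 for Hbb-bt and 1.97 for Alas2. Depth limits the 4 untested erythroid factors and the 9 untested red cell membrane genes, of which some lie at or under the floor of 3 counts.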

Other observations

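The genes most like Alas2 over the 6 libraries, looked up after the data were examined and given as a description, included 3 of the heme and red cell lists: Ube2l6 (Pearson r = 0.981), Epb41 (0.975) and Slc25a37 (0.955). Another among the 10 was Fam46c, which encodes a poly(A) polymerase and had 28.4, 59.8 and 14.0 CPM in sgEgfr, against 6.47, 7.52 and 10.4 CPM in sgRosa, without overlap. The remaining 6 were Grk4, Fabp5, Eea1, Ube2r2, Cblb and Cyp4f18, whose levels differed between libraries by 1.31-fold (Eea1) to 2.20-fold (Cblb).

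Genes that store, carry and break down iron and heme had mostly negative log2 fold changes. Of 17 tested, 4 were positive and 13 negative (median -0.26), 0 were called by edgeR, and 2 were lower at an unadjusted p under 0.05. The ferritin light chain gene Ftl1 had 300.3, 338 and 213 CPM in sgEgfr and 933, 570 and 346 CPM in sgRosa. The heme oxygenase gene Hmox2 had 25.8, 35.3 and 26.9 CPM in sgEgfr and 67.2, 44.3 and 36.4 CPM in sgRosa. The transferrin gene Trf, which oligodendrocytes express strongly, had 2888, 5185 and 1529 CPM in sgEgfr and 7659, 6891 and 3079 CPM in sgRosa. Oligodendrocyte markers summed to 39689, 58265 and 22748 CPM in sgEgfr and 73091, 66116 and 24763 CPM in sgRosa, and their part in these values was not tested. Hmox1, the inducible heme oxygenase gene that responds to free heme, had 3.84, 23.2 and 7.01 CPM in sgEgfr and 3.94, 8.35 and 12.6 CPM in sgRosa. It was highest in the library with the most hemoglobin. The next highest was sgRosa replicate 3, with the lowest hemoglobin sum, so Hmox1 did not follow the hemoglobin order. Exons of Ftl1, Hmox2 and Trf overlap those of other genes.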
